A study of Mus musculus with 6 samples.

Results

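The germ-cell RNA-binding proteins described here are encoded by 8 genes, *Ddx4*, *Dazl*, *Cpeb1*, *Ybx2*, *Dnd1*, *Rbm46*, *Ythdc2* and *Meioc*. They were picked by gene name as regulators of germ-cell RNA, and all 8 were found among the 54532 genes of the deposited expression table. The 3 Ctrl and 3 cKO libraries each hold RNA of entire fetal ovaries at 16.5 dpc (days post-coitus), from mice of strain C57BL/6. Ctrl mice are wild type by the labels. The cKO mice carry the *Stra8-GFPCre* transgene with *Srsf1* Fl/Fl, and Cre removes exons 2, 3 and 4 of *Srsf1*, a splicing factor gene, in germ cells that have begun to express the transgene. By the design of the cross, the somatic cells of the ovary keep *Srsf1*, which was not tested here. Each library mixes RNA of germ cells and somatic cells. In such bulk RNA, fewer germ cells and less RNA per germ cell cannot be told apart.

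Germ cells rely heavily on control of RNA after it is made. DDX4 (VASA) is an RNA helicase of germ granules. DAZL and CPEB1 bind the 3′ ends of mRNAs and set when they are translated, YBX2 (MSY2) packages and stores mRNA in oocytes, DND1 acts with Nanos proteins on mRNA stability in early germ cells, RBM46 binds mRNAs needed for entry into meiosis, and the RNA helicase YTHDC2 works in one complex with MEIOC to let germ cells leave the mitotic programme. In the fetal mouse ovary, germ cells enter meiotic prophase I, and several of these genes are known to act at or after that step.

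The promoters of *Ddx4*, *Dazl*, *Cpeb1* and *Meioc* are shown because these 4 genes moved together with the germ-cell content of the libraries, by a slope that passed an adjusted limit, as described further on. Each line gives the 250 bases before and the 50 bases from the RefSeq start of transcription on the gene's strand (GRCm38.p6), with capitals for the letters of an E-box (CACGTG) or an E2F motif (TTCCCGC, or GCGGGAA on the other strand). The windows are chr13:112652261-112652560 on the minus strand for *Ddx4*, chr17:50293571-50293870 on the minus strand for *Dazl*, chr7:81454709-81455008 on the minus strand for *Cpeb1* and chr11:102665335-102665634 on the plus strand for *Meioc*.
Ddx4: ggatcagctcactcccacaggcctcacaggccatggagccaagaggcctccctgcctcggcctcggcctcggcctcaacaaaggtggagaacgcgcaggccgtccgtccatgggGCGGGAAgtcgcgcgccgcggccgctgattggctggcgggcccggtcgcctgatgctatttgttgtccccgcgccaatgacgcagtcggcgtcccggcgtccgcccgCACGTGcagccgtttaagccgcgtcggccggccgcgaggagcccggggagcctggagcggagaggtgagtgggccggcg
Dazl: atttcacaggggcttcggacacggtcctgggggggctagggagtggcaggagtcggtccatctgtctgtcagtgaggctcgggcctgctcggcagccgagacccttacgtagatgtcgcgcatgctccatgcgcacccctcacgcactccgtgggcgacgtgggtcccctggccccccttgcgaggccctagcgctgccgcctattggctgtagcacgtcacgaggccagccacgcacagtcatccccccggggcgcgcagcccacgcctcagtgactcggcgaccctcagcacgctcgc
Cpeb1: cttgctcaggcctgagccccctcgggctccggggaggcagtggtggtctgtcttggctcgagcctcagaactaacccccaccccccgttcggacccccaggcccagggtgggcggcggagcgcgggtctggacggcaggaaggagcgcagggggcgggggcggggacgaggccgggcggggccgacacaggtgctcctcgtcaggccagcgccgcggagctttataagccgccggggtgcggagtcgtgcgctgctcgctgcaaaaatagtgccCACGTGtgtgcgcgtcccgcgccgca
Meioc: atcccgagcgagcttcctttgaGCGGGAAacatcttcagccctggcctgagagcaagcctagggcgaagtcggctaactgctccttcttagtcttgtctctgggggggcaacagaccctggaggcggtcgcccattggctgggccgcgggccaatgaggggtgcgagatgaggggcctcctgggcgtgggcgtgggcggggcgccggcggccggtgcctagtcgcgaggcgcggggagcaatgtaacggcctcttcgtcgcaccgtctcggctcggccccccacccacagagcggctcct

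E-box and E2F letters are of interest in germline promoters because the repressor complex PRC1.6 is known to hold many germline genes silent in somatic cells through MGA with MAX and through E2F6. The *Ddx4* window holds both motifs, with the E2F letters from position -136 relative to the start of transcription. The *Meioc* window holds the E2F letters alone and the *Cpeb1* window the E-box alone, which begins at position 25 after the start. Neither motif occurs in the *Dazl* window. Of all 32851 RefSeq promoters of the same length, 7.15% hold the E-box and 4.6% the E2F letters on either strand, and the motifs do not overlap each other. All 4 windows are rich in CpG, with 38 CpG in *Ddx4*, 28 in *Dazl*, 33 in *Cpeb1* and 28 in *Meioc*, beside a median of 7 over all promoters. Among the other members, *Rbm46* has 1 E-box and 25 CpG, and *Ybx2* has 2 RefSeq starts with neither motif and 40 and 32 CpG. *Dnd1* and *Ythdc2* had no entry in the promoter table.

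In GRCm38 as given by the deposited table, *Ddx4* (ENSMUSG00000021758) lies on chromosome 13 from 112598333 to 112652475, *Dazl* (ENSMUSG00000010592) on chromosome 17 from 50279395 to 50293636 and *Cpeb1* (ENSMUSG00000025586) on chromosome 7 from 81347026 to 81455465. *Rbm46* (ENSMUSG00000033882) lies on chromosome 3 from 82837228 to 82876483, and all of these are on the minus strand. *Ybx2* (ENSMUSG00000018554) and *Meioc* (ENSMUSG00000051455) are both on the plus strand of chromosome 11, from 69935796 to 69941605 and from 102663716 to 102682237. *Dnd1* (ENSMUSG00000044595) and *Ythdc2* (ENSMUSG00000034653) are on chromosome 18. *Dnd1* shares 140 exon bases with *Wdr55* on the opposite strand, and since no source used here states whether counting used strand, reads in that stretch cannot be assigned to one gene.

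Levels were deposited as FPKM, the reads on a gene divided by its length and by the size of the library. The reads on genes ranged from 14212164 to 16784241 per library. *Srsf1* checked the labels, with 80.2, 70.1 and 63.1 FPKM in Ctrl 1, 2 and 3 and 32.4, 37.0 and 36.4 FPKM in cKO 1, 2 and 3, without overlap. Its log2 fold change on log2(FPKM + 1) was -0.99 (SE 0.13; limma, unadjusted p = 0.000158, adjusted p = 0.497). Of the 17180 genes with a mean of at least 0.5 FPKM that were tested, none passed an adjusted p below 0.05 in limma, and 761 passed the study's own limit of an unadjusted p below 0.05.

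The libraries differed widely in how much germ-cell RNA they held, within both groups. The 8 members together took 267, 562 and 958 reads per 1000000 reads on genes in Ctrl 1, 2 and 3. In cKO 1, 2 and 3 they took 1419, 498 and 1584 on this scale. This was a 5.93-fold range, with Ctrl 1 lowest and cKO 3 highest, and cKO 2 below Ctrl 2. A separate list of 10 meiotic germ-cell genes, none of them a member, with *Smc1b* and *Sycp1* the most abundant, followed the same order, at 548, 1287 and 2243 on the same scale in Ctrl and 2655, 866 and 2470 in cKO, except that cKO 1 stood above cKO 3. The mean log2(FPKM + 1) of that list averaged 4.87 ± 0.92 over Ctrl and 5.36 ± 0.86 over cKO (SD, n = 3 each), and this mean is called the germ-cell level here. A second fit used it as a covariate.

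**Figure D1:**
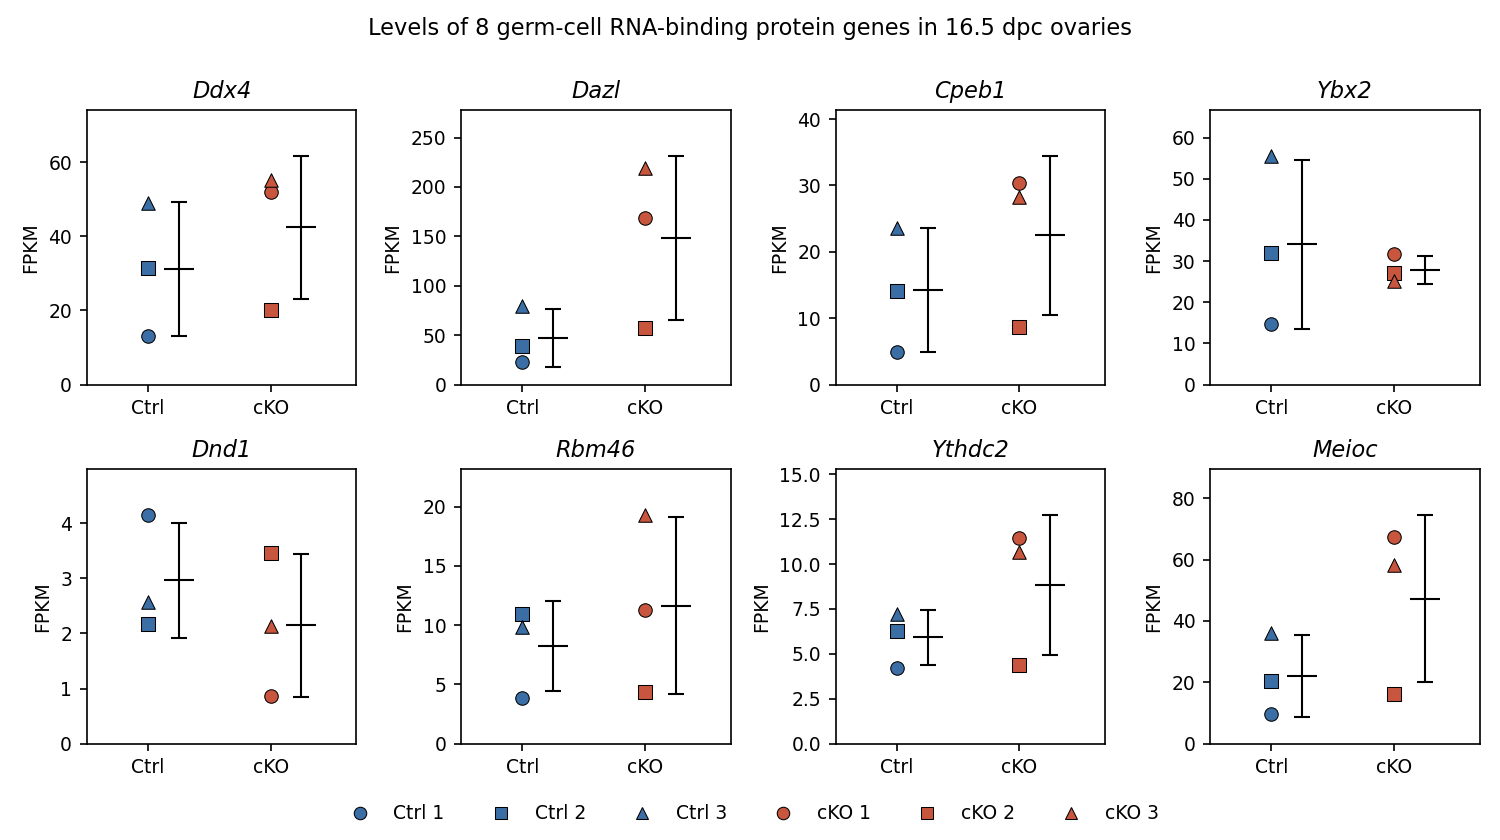
FPKM of each member in each library (points, one symbol a library) with the mean and SD of each group (bars beside the points, n = 3); each panel has its own linear axis from 0. In all 8 panels the groups overlap, Ctrl 1 and cKO 2 are low for most members, and *Dnd1* runs the other way.

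In order of mean level over the 6 libraries, *Dazl* came first with 97.8 FPKM and was above *Ddx4* (36.8 FPKM) in 6 of 6 libraries. *Ddx4*, *Meioc* (34.6 FPKM) and *Ybx2* (31.0 FPKM) were neighbours that changed places. *Ddx4* exceeded *Meioc* in 4 of 6 libraries, 3 of 3 Ctrl but 1 of 3 cKO. *Meioc* exceeded *Ybx2* in 2 of 6 libraries, both of them cKO. *Cpeb1* (18.4 FPKM) was below *Ybx2* in 5 of 6 libraries and above *Rbm46* (9.94 FPKM) in 6 of 6. *Rbm46* and *Ythdc2* (7.38 FPKM) were not separated, with *Rbm46* higher in 3 of 6 libraries, and *Dnd1*, with the lowest mean at 2.56 FPKM, was below *Ythdc2* in 6 of 6. In Ctrl 1, *Dnd1* was above *Rbm46*.

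Between the groups, 1 of 8 members, *Dazl*, passed the unadjusted limit, beside 4.43% of all genes tested in either direction, 2.68% higher and 1.75% lower in cKO. No member passed an adjusted p below 0.05 in limma, nor did any other gene, and the groups overlapped for all 8 members, while they did not overlap for 8.68% of genes (4.59% higher and 4.1% lower in cKO). The members' median log2 fold change was 0.46, with 6 of 8 above 0, beside a median of -0.01 over all genes tested. The members also varied more between libraries than the median gene. Their highest library exceeded their lowest by 2.72-fold (*Ythdc2*) to 9.53-fold (*Dazl*), while the median over 16563 genes was 1.66-fold.

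*Ddx4*, the germ-granule helicase, stood at 13.1, 31.5 and 49.0 FPKM in Ctrl 1, 2 and 3, respectively, and at 51.9, 20.2 and 55.1 FPKM in cKO 1, 2 and 3. The value of cKO 2 lay between those of Ctrl 1 and Ctrl 2, and Ctrl 3 was close to the other two cKO libraries. The group means were 31.2 ± 18.0 FPKM and 42.4 ± 19.3 FPKM (SD, n = 3 each), and the log2 fold change was 0.49 (SE 0.55; limma, unadjusted p = 0.403, adjusted p = 0.981; exact permutation p = 0.5).

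*Dazl*, the gene of a translational regulator that germ cells need to enter meiosis, had 23.0, 39.1 and 80.0 FPKM in Ctrl and 169, 56.8 and 219 FPKM in cKO. The cKO 1 and cKO 3 libraries were above all Ctrl libraries, but cKO 2 fell below Ctrl 3. The means were 47.4 ± 29.4 FPKM in Ctrl and 148 ± 83.1 FPKM in cKO (SD, n = 3 each). The log2 fold change of 1.60 (SE 0.61) passed the unadjusted limit in limma (unadjusted p = 0.0345) but not after adjustment (adjusted p = 0.978), and the exact permutation test gave p = 0.2. The unadjusted call was kept or lost depending on the library left out. It held without Ctrl 3, at 2.06 (limma, unadjusted p = 0.0126), and without cKO 2, at 2.18 (limma, unadjusted p = 0.00589). It was lost on leaving out Ctrl 1, which gave a log2 fold change of 1.18 (limma, unadjusted p = 0.105), or Ctrl 2, which gave 1.55 (limma, unadjusted p = 0.0796). It was also lost on leaving out cKO 1, at 1.40 (limma, unadjusted p = 0.0967), and cKO 3, at 1.21 (limma, unadjusted p = 0.109).

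*Cpeb1*, which encodes a protein of the cytoplasmic polyadenylation machinery, ran in parallel with *Ddx4* at a lower level. It had 4.96, 14.1 and 23.6 FPKM in Ctrl and 30.4, 8.74 and 28.3 FPKM in cKO. The groups overlapped through cKO 2, and the log2 fold change was 0.67 (SE 0.63; limma, unadjusted p = 0.323, adjusted p = 0.978; exact permutation p = 0.5).

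*Ybx2*, whose product stores mRNA in growing oocytes, had 14.7, 31.9 and 55.5 FPKM in Ctrl and 31.7, 27.0 and 25.0 FPKM in cKO. The 3 cKO libraries lay close together, with an SD of 3.41 FPKM beside 20.5 FPKM in Ctrl, and all 3 fell inside the range of Ctrl. The log2 fold change was -0.10 (SE 0.43; limma, unadjusted p = 0.825, adjusted p = 0.993; exact permutation p = 0.8).

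*Dnd1*, known from the survival of primordial germ cells, was the member with the fewest reads, 32 to 150 per library. It had 4.15, 2.18 and 2.56 FPKM in Ctrl and 0.858, 3.46 and 2.13 FPKM in cKO. Its highest library, Ctrl 1, was the lowest for the other 7 members, and cKO 1, among the highest for most of them, was its lowest. The log2 fold change was -0.39 (SE 0.34; limma, unadjusted p = 0.297, adjusted p = 0.978; exact permutation p = 0.4). *Wdr55*, with which it shares exon bases, had 16.8, 18.7 and 12.1 FPKM in Ctrl and 12.1, 15.0 and 9.87 FPKM in cKO, and its part in the counts of *Dnd1* was not tested.

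*Rbm46*, a gene needed for meiotic entry, had 3.87, 11.0 and 9.87 FPKM in Ctrl and 11.3, 4.32 and 19.3 FPKM in cKO. Ctrl 1 and cKO 2 were the low libraries in their groups. The log2 fold change was 0.36 (SE 0.54; limma, unadjusted p = 0.535, adjusted p = 0.986; exact permutation p = 0.5).

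The partners *Ythdc2* and *Meioc* moved in the same order within Ctrl and had cKO 2 as the low library within cKO. *Ythdc2*, the helicase, had 4.21, 6.28 and 7.25 FPKM in Ctrl and 11.5, 4.37 and 10.7 FPKM in cKO, and its log2 fold change was 0.44 (SE 0.35; limma, unadjusted p = 0.251, adjusted p = 0.978; exact permutation p = 0.3). *Meioc*, the germ-cell subunit, had 9.56, 20.4 and 36.1 FPKM in Ctrl and 67.3, 16.2 and 58.1 FPKM in cKO. In both genes cKO 1 and cKO 3 exceeded all Ctrl libraries and cKO 2 did not. The log2 fold change of *Meioc* was 1.02 (SE 0.64; limma, unadjusted p = 0.155, adjusted p = 0.978; exact permutation p = 0.3). Without cKO 2, both passed the unadjusted limit in limma, *Meioc* at a log2 fold change of 1.65 (unadjusted p = 0.0199, adjusted p = 0.279) and *Ythdc2* at 0.83 (unadjusted p = 0.00952, adjusted p = 0.234). In that fit 14.5% of all genes tested passed the same limit.

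Members were then set against the germ-cell level of the same library. In a limma fit with the group and the germ-cell level as terms, the slope on the germ-cell level passed an adjusted p below 0.05 for 4 of 8 members, all with slopes above 0, beside 1.36% of all genes in either direction and 1.2% above 0. The slopes, in log2 units of the member per log2 unit of the germ-cell level, were 0.96 (SE 0.07, adjusted p = 0.0158) for *Ddx4*, 1.05 (SE 0.10, adjusted p = 0.0188) for *Dazl*, 1.11 (SE 0.07, adjusted p = 0.0158) for *Cpeb1* and 1.11 (SE 0.10, adjusted p = 0.0158) for *Meioc*. These 4 genes moved about in proportion to the germ-cell level. The members were picked as germ-cell genes, so slopes above 0 on a germ-cell level were likely in advance. The share over all genes thus says little about germ-cell genes.

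*Rbm46* had a slope of 0.86 (SE 0.18, adjusted p = 0.0852 in limma), *Ythdc2* of 0.56 (SE 0.11, adjusted p = 0.0766) and *Ybx2* of 0.55 (SE 0.21, adjusted p = 0.227), none past the limit. *Dnd1* had a slope of -0.43 (SE 0.18, adjusted p = 0.234). Pearson's r with the germ-cell level over the 6 libraries, given as a description since both come from the same libraries, was 0.997 for *Ddx4*, 0.994 for *Cpeb1*, 0.963 for *Meioc*, 0.932 for *Ythdc2*, 0.904 for *Rbm46*, 0.880 for *Dazl*, 0.664 for *Ybx2* and -0.775 for *Dnd1*. *Dnd1* instead ran with the red blood cell list (r = 0.841), whose mean log2(FPKM + 1) was 7.44 to 9.53 in Ctrl and 6.56 to 8.75 in cKO. All other members had a negative r with that list, from -0.738 (*Cpeb1*) to -0.417 (*Rbm46*). Germ-cell and red blood cell levels thus ran against each other, and the correlations of *Dnd1* with them cannot be told apart.

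**Figure D2:**
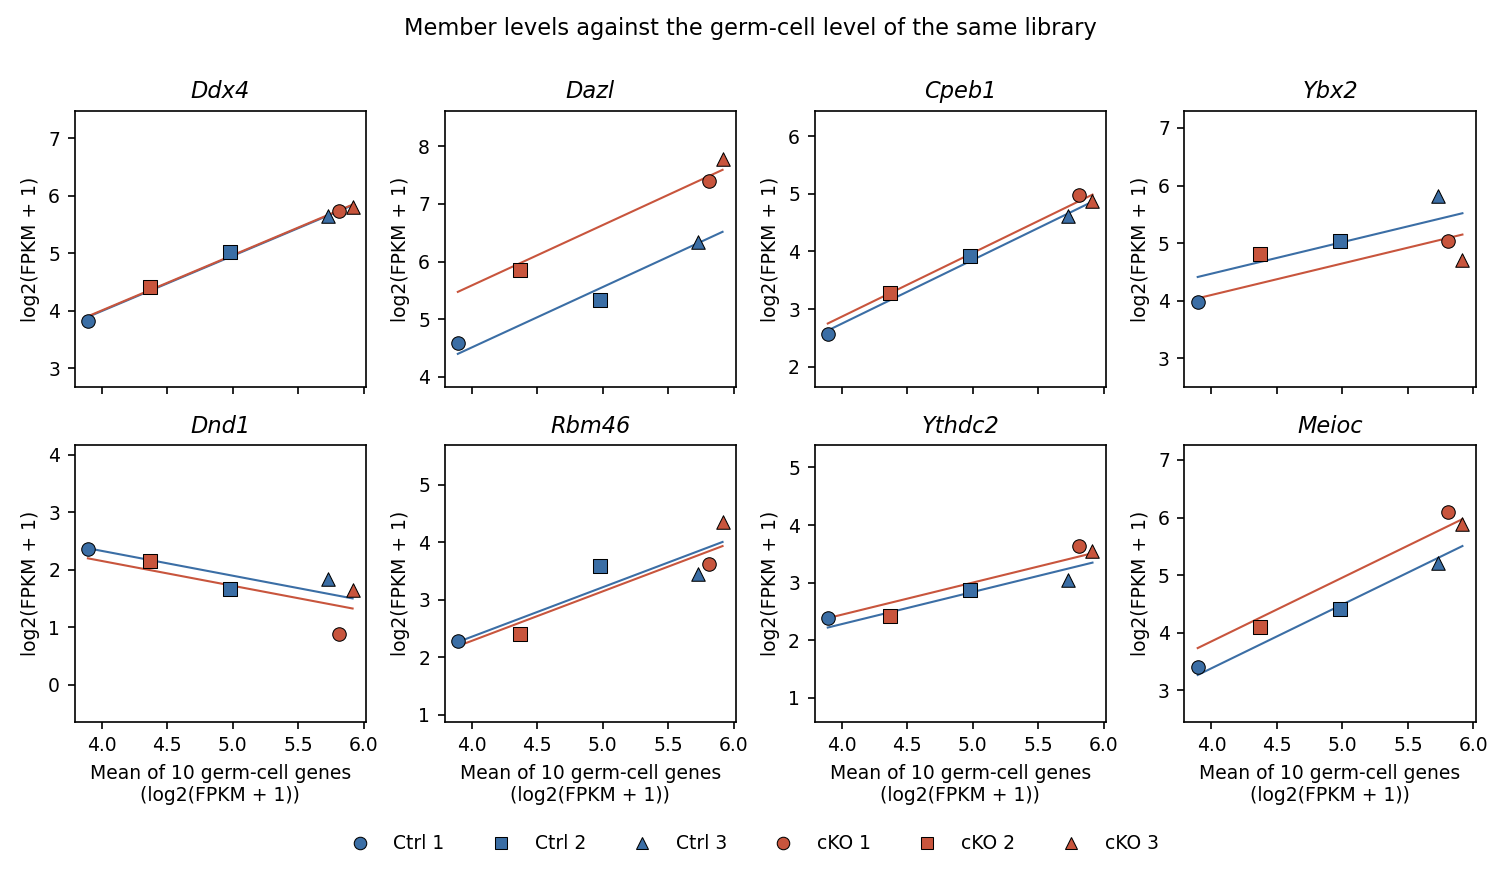
Level of each member (log2(FPKM + 1), vertical) against the germ-cell level of the same library (mean log2(FPKM + 1) of 10 genes, horizontal); lines are the fit with one slope and a level for each group, and all panels span the same number of log2 units. The 2 lines coincide for *Ddx4* and are farthest apart for *Dazl*; the cKO libraries of *Ybx2* do not rise with the germ-cell level.

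At equal germ-cell level, *Dazl* and *Meioc* were higher in cKO at the unadjusted limit and the other 6 members did not pass it, so that 2 of 8 passed beside 6.35% of all genes in either direction and 3.21% higher in cKO. For *Dazl* the difference was 1.08 on the log2 scale (SE 0.16; limma, unadjusted p = 0.000524, adjusted p = 0.444). For *Meioc* it was 0.47 (SE 0.15; limma, unadjusted p = 0.0207, adjusted p = 0.736). Single germ-cell genes of the reference list differed by as much as *Meioc*. In the same fit, 4 of those 10 passed the unadjusted limit, with *Tex15* (0.52) and *Meiob* (0.49) higher and *Asz1* (-0.62) and *Sycp1* (-0.37) lower in cKO. Since the 10 genes make up the covariate, their differences balance by construction. No gene of the table passed an adjusted p below 0.05 in this fit, while 1091 passed at an unadjusted p below 0.05.

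The standard errors shrank with the covariate in all 8 members. *Ddx4* went from 0.49 to 0.01 (SE 0.10; limma, unadjusted p = 0.918, adjusted p = 0.993), and *Cpeb1* from 0.67 to 0.12 (SE 0.11). *Ythdc2* had 0.16 (SE 0.17), *Rbm46* -0.07 (SE 0.28), *Dnd1* -0.17 (SE 0.27) and *Ybx2* -0.37 (SE 0.33). The members' median log2 fold change was 0.07 in this fit.

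**Figure D3:**
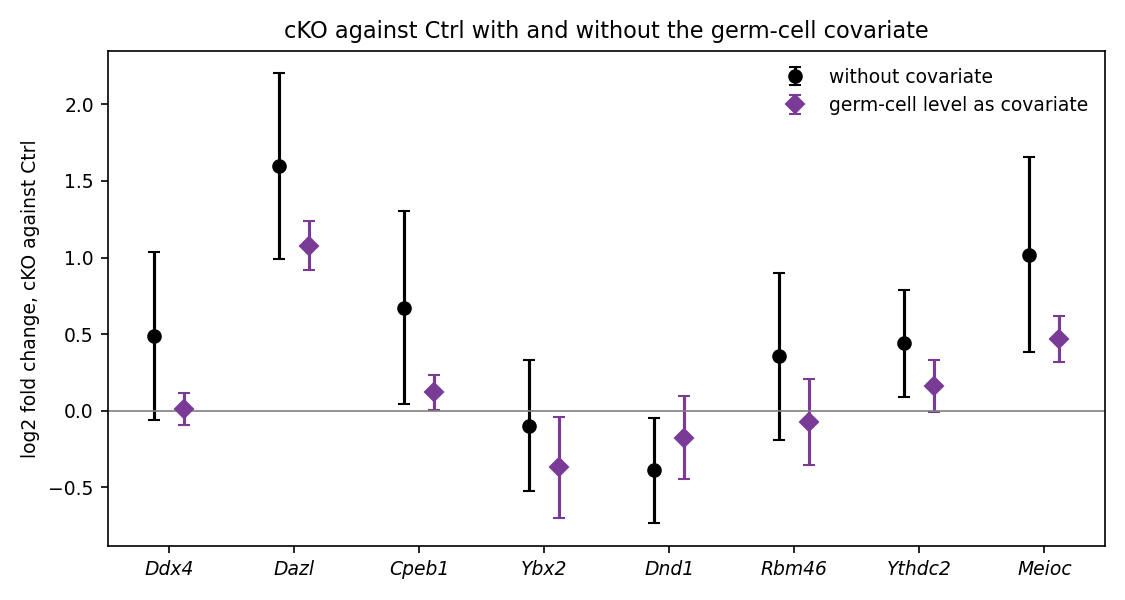
Log2 fold change of each member, cKO against Ctrl, with its SE as bars, from the limma fit without a covariate (black) and with the germ-cell level as covariate (purple), both over 6 libraries. With the covariate, *Dazl* stays at 1.08 and *Meioc* at 0.47, while *Ddx4* and *Cpeb1* come to 0.01 and 0.12.

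*Dazl* kept its difference at equal germ-cell level whichever library was left out, at 0.97 to 1.24 with an unadjusted limma p of 0.000325 to 0.00479 (6 of 6 fits past the unadjusted limit). *Meioc* ranged from 0.36 to 0.68 and lost the unadjusted limit without Ctrl 2 (limma, unadjusted p = 0.0684) or Ctrl 3 (unadjusted p = 0.131). Without cKO 2, *Ybx2* (-1.06, unadjusted p = 0.00375 in limma) and *Ythdc2* (0.47, unadjusted p = 0.0223) also passed, so that 4 of 8 members did, beside 10.2% of all genes.

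**Figure D4:**
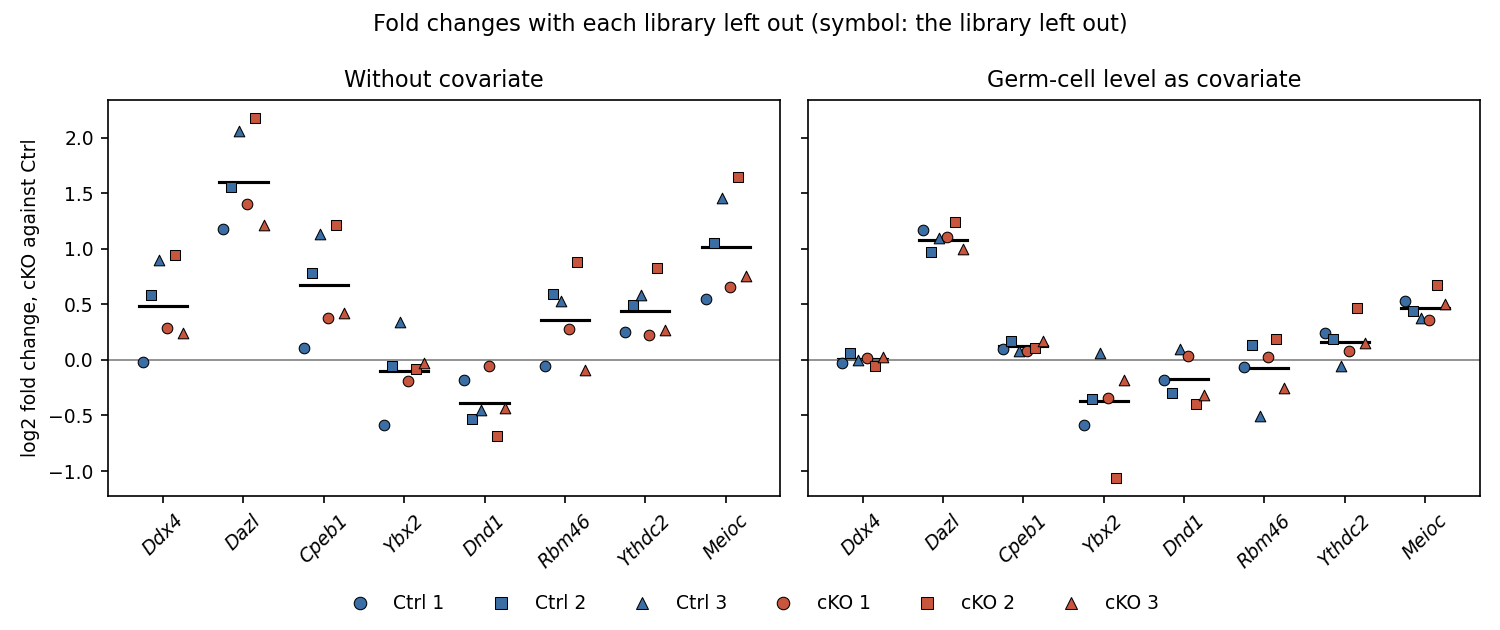
Log2 fold change of each member with each library left out in turn (symbol for the library left out; black line, all 6 libraries), without a covariate on the left and with the germ-cell level as covariate on the right. On the right, the symbols of *Dazl* stay between 0.97 and 1.24, and *Ybx2* drops to -1.06 without cKO 2.

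Members were also compared as ratios within a library, with *Ddx4*, a gene of germ cells, as reference. The FPKM of *Dazl* was 1.76, 1.24 and 1.63 times that of *Ddx4* in the Ctrl libraries but 3.25, 2.80 and 3.98 times in the cKO libraries. All cKO libraries were above all Ctrl libraries, and the mean difference in log2(FPKM + 1) was 1.11. The ratio of *Meioc* to *Ddx4* was 0.731, 0.648 and 0.737 in Ctrl and 1.30, 0.802 and 1.06 in cKO, again without overlap, with a mean log2 difference of 0.53. The exact permutation test gave p = 0.1 for both, the smallest it can give with 3 libraries against 3, and 0.35 when adjusted over the 7 ratios. Over all genes tested, 1.26% did not overlap relative to *Ddx4* and 0.25% did so on the higher side in cKO, and the 2 members were among the latter. Relative to the germ-cell level in place of *Ddx4*, both again did not overlap (log2 differences of 1.10 and 0.52), beside 1.04% of genes in either direction and 0.262% higher in cKO. Subtracting *Ddx4*, which varied 4.21-fold between libraries, or the germ-cell level adds spread to genes that do not follow it and lowers these shares. The shares thus say little about germ-cell genes. Of the 10 genes of the germ-cell level, *Tex15* also did not overlap relative to *Ddx4*. Its FPKM was below that of *Ddx4* in every Ctrl library and above it in every cKO library. *Asz1* did not overlap on the lower side in cKO.

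For the other 5 ratios the groups overlapped. That of *Cpeb1* was the steadiest, 0.380, 0.449 and 0.482 in Ctrl and 0.586, 0.432 and 0.514 in cKO (log2 difference 0.18, exact permutation p = 0.3). *Ythdc2* and *Rbm46* differed by -0.05 and -0.13 (exact permutation p = 0.9 for each), and *Dnd1* by -0.88 (exact permutation p = 0.5). With each library left out, the differences of *Dazl* (0.97 to 1.24) and *Meioc* (0.37 to 0.71) stayed without overlap. Without cKO 2, the groups also did not overlap for *Ybx2* (-1.02), *Dnd1* (-1.62) and *Cpeb1* (0.28), with an exact permutation p of 0.2 for each. The share of all genes without overlap was not counted with a library left out, so no background stands beside these values. In the limma fit without cKO 2, 14.5% of all genes tested passed the unadjusted limit. *Dnd1* came to -0.17 without Ctrl 1 and -0.34 without cKO 1, and *Ybx2* to -0.27 without cKO 3. These ratios show unequal change of a pair of genes and not which of them changed.

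*Ybx2* was the member whose relation to the germ-cell level differed most between the groups. Its ratio to *Ddx4* was 1.13, 1.01 and 1.13 in Ctrl, where *Ddx4* itself spanned 13.1 to 49.0 FPKM, and 0.610, 1.33 and 0.455 in cKO (log2 difference -0.59, exact permutation p = 0.4). The cKO libraries thus lay on both sides of Ctrl, with cKO 2 above and cKO 1 and cKO 3 below. In a limma fit with a slope for each group, *Ybx2* had a slope of 1.00 in Ctrl and 0.03 in cKO, a difference of -0.98 (SE 0.16; unadjusted p = 0.00192, adjusted p = 0.432). *Ythdc2* differed the other way, with slopes of 0.37 and 0.77 (difference 0.41, SE 0.14; limma, unadjusted p = 0.0343, adjusted p = 0.447). These 2 of 8 members compare with 10.9% of all genes at the same unadjusted limit, and each slope rests on 3 libraries.

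**Figure D5:**
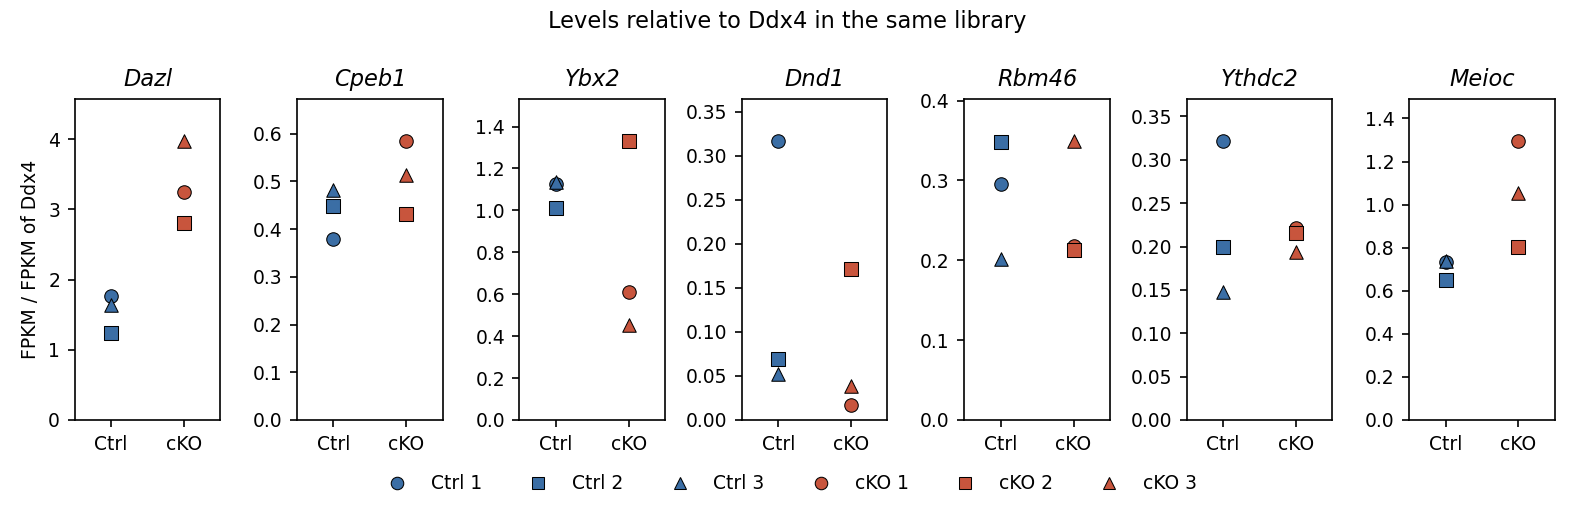
FPKM of 7 members divided by the FPKM of *Ddx4* in the same library (points, one symbol a library; linear axes from 0). The groups do not overlap for *Dazl* and *Meioc*, and *Ybx2* is tight at 1.01 to 1.13 in Ctrl and spread from 0.455 to 1.33 in cKO.

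Relatives of the members, their partners and known target mRNAs were counted in the same way, beside the 4.43% of all genes past the unadjusted limit. Of 12 relatives tested (of 13 listed), none passed the unadjusted limit in limma, and the median log2 fold change was 0.17. The most abundant were *Ybx1*, the broadly expressed relative of *Ybx2*, with a log2 fold change of -0.25, and the helicase gene *Ddx3x* with -0.01. At equal germ-cell level, 1 relative passed, beside 6.35% of all genes in either direction and 3.21% higher in cKO. This was *Boll*, the other DAZ family gene, with 0.51 (SE 0.17; limma, unadjusted p = 0.0262, adjusted p = 0.768). Its values were 1.21, 1.69 and 4.25 FPKM in Ctrl and 6.09, 2.41 and 6.65 FPKM in cKO, which overlap.

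Of 15 partners tested (of 16 listed), 1 passed the unadjusted limit and the median was 0.12. This was *Patl2*, which encodes an oocyte protein of mRNA storage particles, at 1.21, 0.939 and 2.30 FPKM in Ctrl and 4.33, 1.69 and 4.51 FPKM in cKO. The groups overlapped, and the log2 fold change was 0.83 (SE 0.34; limma, unadjusted p = 0.0439, adjusted p = 0.978). At equal germ-cell level 1 partner passed, again *Patl2*, with 0.60 (SE 0.23; limma, unadjusted p = 0.0404, adjusted p = 0.771). *Pum2* and *Lsm14b*, the most abundant partners, had 0.14 and 0.24.

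Among 6 targets tested (of 7 listed), none passed the unadjusted limit, and the median was 0.09. *Sycp1* and *Sycp3*, whose mRNAs DAZL or CPEB1 are known to bind, had log2 fold changes of 0.27 (SE 0.73) and 0.36 (SE 0.56). Both also belong to the 10 genes of the germ-cell level, whose differences in the covariate fit balance by construction. In that fit *Sycp1* had -0.37 (SE 0.11; limma, unadjusted p = 0.0130, adjusted p = 0.673). *Sycp3* had -0.13 (SE 0.12; limma, unadjusted p = 0.339).

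Outside the 8 members, the genes whose log2(FPKM + 1) ran most like the members' mean, of 9359 genes with a mean of at least 5 FPKM, were *Rnf17* (Pearson's r = 0.996), *Dgat2* (0.996), *Gemin5* (0.995), *Spata22* (0.994) and *Amy1* (0.994), each over 6 libraries. *Rnf17*, a germ-cell Tudor gene, had 5.16, 10.6 and 16.5 FPKM in Ctrl and 22.6, 8.21 and 24.4 FPKM in cKO. The order of the libraries was the same for all 5 as for the members' mean, with Ctrl 1 lowest and cKO 3 highest.

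The pregranulosa, stroma and endothelium lists varied less between libraries than the members. The red blood cell list varied more, at 7.44 to 9.53 in Ctrl and 6.56 to 8.75 in cKO (mean log2(FPKM + 1)). The mean log2(FPKM + 1) was 5.63 to 5.82 in Ctrl and 5.61 to 6.02 in cKO for pregranulosa genes (*Kitl* and *Gata4* the most abundant), 5.50 to 5.67 and 5.52 to 5.59 for stroma (*Col1a1*, *Col1a2*), and 3.29 to 3.59 and 3.33 to 3.51 for endothelium (*Cdh5*, *Kdr*), beside 3.17 to 4.49 and 3.68 to 4.82 for the 8 members. No gene of the pregranulosa, stroma, endothelium, immune (*Lyz2*, *Cd68*), mesonephros (*Emx2*, *Pax8*) or testis (*Sox9*, *Cyp17a1*) lists passed the unadjusted limit in limma without a covariate. In the red blood cell list, with *Hba-a1* and *Hbb-bs* the most abundant, 1 gene did, *Hbb-y*, an embryonic globin gene (log2 fold change 2.10, unadjusted p = 0.00589, adjusted p = 0.978). At equal germ-cell level, *Wnt4* (pregranulosa, 0.30), *Cyp17a1* (testis, 0.41) and *Hbb-y* (1.94) passed, beside 6.35% of all genes in either direction. Their unadjusted p in limma was 0.0449, 0.0271 and 0.0133, respectively. The part of the cells of these lists in the members' values was not tested.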

How the data were processed

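RNA of whole ovaries was sequenced in 6 libraries, grouped by the sample labels. The labels give ovary as the tissue, as does the paper, though another tissue appears in the extraction text. The authors selected poly-A mRNA, aligned paired-end reads to mm10 (GRCm38) with HISAT2 2.0.5, used featureCounts for gene counts and deposited FPKM. From gene lengths, every FPKM was turned back into a whole number of reads (tolerance 0.05 read), which gave the depth behind it. No source used here names the annotation release; 98.33% of shared gene IDs have the coordinates of GENCODE M21.

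Here log2(FPKM + 1) was tested with limma 3.58.1 (R 4.3.3; intensity trend, two-sided), with cKO against Ctrl, over all genes whose mean FPKM reached 0.5. This scale understates the change of low genes. Single genes and ratios also had an exact permutation test, two-sided, which cannot go below 0.1. Further fits added the mean of 10 germ-cell genes, or that mean with a slope for each group; the latter was chosen after the values were seen. The libraries are separate samples in the labels, and p-values measure the spread between them. Tables were read with Python 3.11.15 (pandas 2.3.3, scipy 1.17.1). The fit was tested on simulated data.

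Pseudocounts of 0.1 and 0.5, a minimum of 0 or 1 FPKM, median-ratio scaling, quantile normalization, voom on recovered reads, no trend, the replicate number as a block, the covariate, and each library left out, also with the covariate (added later), served as alternatives. The members and gene lists were chosen with earlier results of these data known. Named genes are the members, *Srsf1*, genes of the relatives, partners and targets past the unadjusted limit and the 2 most abundant of each list, and the 5 genes most like the members' mean. *Boll*, *Wdr55*, *Hbb-y*, *Wnt4*, *Tex15*, *Meiob*, *Asz1*, *Lhx8*, *Sohlh1* and *Gdf9* were named after their values were seen.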

Additional observations from a re-analysis of the deposited data

How the results depend on the processing

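The number of members past the unadjusted limit, 1 without a covariate, was the same with either pseudocount, either minimum, median-ratio scaling, quantile normalization, voom and no trend. It was 2 with the germ-cell covariate and 0 to 3 with each library left out, 0 without Ctrl 1, Ctrl 2, cKO 1 or cKO 3 and 3 without cKO 2. With the covariate (chosen after the values were seen where a library was also left out), it was 1 to 4, being 2 without Ctrl 1, cKO 1 or cKO 3 and 4 without cKO 2. The members' median log2 fold change was 0.04 to 0.91 with each library left out. Counts over all genes, 460 higher and 301 lower, were 736 and 595 with no minimum FPKM, 540 lower with the covariate, and 202 to 1461 higher and 163 to 1039 lower with each library left out. Without the covariate, the share of all genes past the limit was 2.12% to 6.87% with another library left out and 14.5% without cKO 2. With the covariate it was 6.35% over all 6 libraries, 3.47% to 8.3% with another library left out and 10.2% without cKO 2. The causes were not tested.

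Single members with small values changed sign. *Ddx4* spanned -0.018 (without Ctrl 1) to 0.94 (without cKO 2), and with the covariate was -0.027 without Ctrl 1 and -0.059 without cKO 2. *Ybx2* spanned -0.58 (without Ctrl 1) to 0.34 (without Ctrl 3), and with the covariate was 0.064 without Ctrl 3. *Dnd1* was, with the covariate, 0.094 without Ctrl 3 and 0.035 without cKO 1. *Rbm46* was -0.071 with the covariate, spanned -0.087 (without cKO 3) to 0.88 (without cKO 2) with -0.054 without Ctrl 1, and with the covariate was -0.063 without Ctrl 1, -0.50 without Ctrl 3 and -0.25 without cKO 3. *Ythdc2* was -0.052 with the covariate and without Ctrl 3. *Dazl*, *Cpeb1* and *Meioc* kept their direction in all 22 alternatives, *Dazl* between 0.97 and 2.18 and *Meioc* between 0.36 and 1.65.

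The labels give the groups shared replicate numbers but no shared animal or day. Deviations from the group means correlated at -0.39, -0.03 and 0.12 across same-numbered libraries. Across differently numbered libraries they correlated at -0.34 to 0.35, so these values cannot show whether the numbers pair the samples. With the replicate number as a block, 1 member passed, *Dazl* (1.60, limma, unadjusted p = 0.0160), the members' median was 0.46, and 434 genes were higher and 247 lower.

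Depth limited *Dnd1* most, with 32 to 150 reads per library, and *Rbm46* with 145 to 684. The other members had at least 312 reads in each library.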

Other observations

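The early germ-cell list, genes of primordial germ cells and pluripotency, had 2 of 5 tested genes (of 8 listed) past the unadjusted limit in limma, both higher in cKO, beside 2.68% of all genes on that side, and a median log2 fold change of 0.64. *Dppa3*, a maternal-effect gene known from primordial germ cells, had 0.897, 0.138 and 1.54 FPKM in Ctrl and 2.68, 1.67 and 8.05 FPKM in cKO, which do not overlap (log2 fold change 1.34, SE 0.50; limma, unadjusted p = 0.0312, adjusted p = 0.978). It had as few as 2 reads in a library. Groups did not overlap on the higher side in cKO for 4.59% of all genes tested. *Lin28a*, which encodes an RNA-binding protein that blocks let-7 maturation, had 0.467, 0.649 and 1.07 FPKM in Ctrl and 1.93, 0.910 and 2.41 FPKM in cKO, which overlap (log2 fold change 0.64, SE 0.26; limma, unadjusted p = 0.0427, adjusted p = 0.978). At equal germ-cell level the list's median was 0.46 and 1 of 5 passed, beside 3.21% of all genes higher in cKO. This was *Lin28a* at 0.46 (SE 0.16; limma, unadjusted p = 0.0314, adjusted p = 0.768). *Dppa3* did not pass there, at 1.11 (SE 0.47; limma, unadjusted p = 0.0566).

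Of the late oocyte list, 6 of 8 genes were tested and none passed the unadjusted limit in limma, with a median of -0.15. *Figla*, an oocyte transcription factor gene, had 8.79 ± 4.96 FPKM in Ctrl and 8.11 ± 2.56 FPKM in cKO (SD, n = 3 each), and *Sohlh2* had 9.45 ± 5.93 and 13.2 ± 6.01 FPKM (SD, n = 3 each). Lower means stood beside them for *Sohlh1*, at 3.04 ± 2.50 and 1.55 ± 0.38 FPKM, and *Lhx8*, at 0.92 ± 0.78 and 0.49 ± 0.23 FPKM (SD, n = 3 each). Ctrl 3 raised the Ctrl mean of both. *Sohlh1* had 1.34, 1.87 and 5.91 FPKM in Ctrl, and *Lhx8* had 0.290, 0.683 and 1.79 FPKM. *Lhx8* had only 10 to 79 reads per library. *Gdf9* of the same list was higher in cKO without overlap, as were 4.59% of all genes tested. Its log2 fold change was 0.22 (SE 0.14; limma, unadjusted p = 0.163, adjusted p = 0.978). It had 0.886, 1.03 and 1.04 FPKM in Ctrl and 1.34, 1.41 and 1.18 FPKM in cKO, at 27 to 48 reads. At equal germ-cell level the list's median was -0.42, and 1 of 6 passed, *Lhx8* at -0.51 (SE 0.20; limma, unadjusted p = 0.0434, adjusted p = 0.775), beside 6.35% of all genes in either direction.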
